A study of Mus musculus with 15 samples.

Results

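*Neurod1*, *Neurod2*, *Neurod6*, *Neurog1*, *Neurog2*, *Eomes*, *Tbr1*, *Emx1* and *Fezf2* are transcription factors of the pyramidal neuron lineage, and their RNA was followed library by library in sorted interneurons of the embryonic mouse cortex. The members were chosen by gene name, and all 9 were found among the 26835 genes of the *Lhx6* table and among the 25714 genes of the *Mtg8* table. Cells derived from the medial ganglionic eminence (MGE), the ventral source of cortical interneurons, were labelled with YFP and sorted from the cortex of single embryos at E14.5, on a mixed C57BL6/CBA background. All groups carried Nkx2-1-Cre and the R26R-YFP reporter, so that the reporter marks cells with a history of Nkx2-1-Cre activity and not a single cell type. The groups were 4 *Lhx6* controls (*Lhx6*+/+), 5 *Lhx6* mutants (*Lhx6*-/-), 3 *Mtg8* controls (*Mtg8*+/+) and 3 libraries labelled *Mtg8* mutant (*Mtg8*-/-). The study describes mutants as littermates of controls, and which libraries share a litter is not given in the sources used here. Both mutations are germline, so that every cell of a mutant embryo carried them, pyramidal cells included. The methods of the study list the *Mtg8* allele as a LacZ knock-in.

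Cortical projection neurons arise in the dorsal telencephalon, the pallium, from progenitors that express *Emx1* and the proneural factors *Neurog1* and *Neurog2*. In that lineage the neurogenins are followed by *Eomes* in intermediate progenitors, then by the NeuroD factors, and by *Tbr1* and *Fezf2* in postmitotic neurons of the deep layers. Interneurons come from ventral progenitors, which use other proneural and homeobox factors, and the lineage factors of the pallium serve as markers of glutamatergic identity.

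Depth ranged from 12218422 to 22053032 reads per library. *Lhx6* fell from 5812 to 8441 normalized counts in the controls to 236 to 495 in the mutants, with a log2 fold change of -4.48. *Runx1t1*, the gene of MTG8, was at 7938 to 10265 in the *Mtg8* controls and at 12250 to 13934 in the libraries labelled *Mtg8* mutant (log2 fold change 0.54, SE 0.17, limma adjusted p = 0.859), so that the labels of these libraries are not checked by their own gene and every direction below rests on the label. Other genes did separate these groups. *Sst*, which encodes the peptide somatostatin of MGE interneurons, was at 14421 to 18501 normalized counts in the *Mtg8* controls and 5683 to 8048 in the labelled mutants (log2 fold change -1.34, limma adjusted p = 0.0713), and *Npy*, which encodes neuropeptide Y, was at 5037 to 6247 and 1952 to 3577 (log2 fold change -1.13, limma adjusted p = 0.580). Among inhibitory markers, *Dlx1*, a homeobox gene of ventral neurons, stood at 1608 to 3672 normalized counts per kb in the *Lhx6* table. In the *Mtg8* table it was at 1603 to 3747. *Gad1* and *Gad2*, genes of GABA synthesis, stood lower. *Gad1* was at 225 to 401 normalized counts per kb in the *Lhx6* table and 336 to 474 in the *Mtg8* table. *Gad2* was at 543 to 945 in the former and 346 to 827 in the latter. Library names came in 2 styles. *Lhx6* mutants 1, 2, 3 and 5, *Mtg8* controls 1 and 2 and labelled mutant 2 have names that begin with a date, and the other libraries do not. What the date stands for was not given in the sources used here. *Lhx6* mutants 2 and 5 share the first part of their names. Names also share their first part across genotypes in *Lhx6* controls 1 and 2 with mutant 6, and in *Mtg8* controls 1 and 2 with labelled mutant 2. The latter are the libraries of the *Mtg8* table with dated names, so that the fit with name style as a covariate separates them from the rest, and in the *Lhx6* table no fit used this grouping as a block.

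The promoters of a few of these genes are shown first, because the lineage factors with a basic helix-loop-helix domain bind the E-box, CANNTG, and several of the genes are known to lie in the same cascade. Each is the 250 bases before the RefSeq start of the gene in GRCm38.p6, written on the strand of the gene with E-boxes in capitals. RefSeq places the start of *Emx1*, of *Fezf2* and of *Tbr1*, which enters the counts of motifs, further downstream than the gene spans of the deposited tables do, so that these windows lie inside those spans, and the window of *Neurod1* does so in part. *Neurod6* (chr6:55681264-55681513, minus strand) is the most abundant of the 9, *Neurod2* (chr11:98329646-98329895, minus strand) and *Emx1* (chr6:85187681-85187930, plus strand) are the genes whose groups did not overlap in the *Mtg8* table, and *Fezf2* (chr14:12345866-12346115, minus strand) is the gene whose groups did not overlap in the *Lhx6* table.
Neurod6: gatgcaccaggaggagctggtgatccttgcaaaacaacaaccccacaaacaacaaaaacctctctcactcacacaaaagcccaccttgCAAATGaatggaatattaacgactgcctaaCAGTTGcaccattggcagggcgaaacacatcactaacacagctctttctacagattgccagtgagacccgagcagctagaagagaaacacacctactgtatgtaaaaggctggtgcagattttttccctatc
Neurod2: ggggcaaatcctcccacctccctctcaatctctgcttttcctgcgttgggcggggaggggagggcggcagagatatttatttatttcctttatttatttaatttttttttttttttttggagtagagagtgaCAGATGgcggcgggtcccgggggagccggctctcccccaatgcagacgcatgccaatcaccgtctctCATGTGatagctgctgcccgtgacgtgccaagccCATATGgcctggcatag
Emx1: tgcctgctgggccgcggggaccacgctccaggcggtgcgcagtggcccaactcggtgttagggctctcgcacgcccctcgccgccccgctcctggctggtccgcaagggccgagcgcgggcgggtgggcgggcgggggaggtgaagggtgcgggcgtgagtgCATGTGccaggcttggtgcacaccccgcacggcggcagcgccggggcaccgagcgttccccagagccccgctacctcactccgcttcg
Fezf2: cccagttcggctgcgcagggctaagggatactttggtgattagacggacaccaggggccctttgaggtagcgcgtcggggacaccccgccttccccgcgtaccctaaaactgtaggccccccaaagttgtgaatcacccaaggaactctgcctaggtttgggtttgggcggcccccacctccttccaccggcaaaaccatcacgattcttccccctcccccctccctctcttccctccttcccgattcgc
*Neurod2* holds 3 E-boxes, *Neurod6* holds 2, *Emx1* holds 1 and *Fezf2* holds 0 in this window. CANNTG reads the same on both strands, so 1 search covers both. It was found in 5 of the 9 promoters (*Neurod1*, *Neurod2*, *Neurod6*, *Tbr1* and *Emx1*), beside 66.2% of the 32851 promoters of this length. CAGATG, an E-box form included in CANNTG and searched on both strands, was found in 1 of the 9 and in 14.4% of all promoters. TAATTA, a homeodomain core motif, was found in 2 of the 9 (*Neurog1* and *Tbr1*) and in 4.84% of all promoters. A match is a run of letters in this window and was not tested as a binding site.

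The first question was how much RNA of each factor the sorted cells held, and which of the factors made up most of it. Normalized counts were divided by the exon length of the gene, so that genes can be compared per kb. *Neurod6* led in every group, with 4633 ± 955 normalized counts per kb (SD, n = 4) in the *Lhx6* controls, 3654 ± 451 (n = 5) in the *Lhx6* mutants, 3436 ± 1447 (n = 3) in the *Mtg8* controls and 4677 ± 2724 (n = 3) in the libraries labelled *Mtg8* mutant. Its mean level per kb ranked 302 of 16727 genes tested in the *Lhx6* table and 304 of 16132 in the *Mtg8* table. *Neurod6*, a NeuroD factor of postmitotic projection neurons, alone made up 58.0 to 66.0% of the summed level of the 9 genes in the libraries of the *Lhx6* table, and 69.6 to 83.1% in those of the *Mtg8* table.

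Below *Neurod6* the order of the genes differed between the tables. In the *Lhx6* controls *Neurog2* followed at 764 normalized counts per kb, ahead of *Neurod2* in 4 of 4 libraries. *Neurod2* (524) and *Emx1* (470) could not be ordered, since *Neurod2* was ahead in 2 of 4 libraries, nor could *Neurod1* (391) and *Fezf2* (369), where *Neurod1* was ahead in 2 of 4. *Eomes* (215), *Tbr1* (135.5) and *Neurog1* (35.4) closed the order, and their ranges did not overlap.

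In the *Mtg8* controls *Neurod1* came next after *Neurod6*, at 340 normalized counts per kb, and then *Neurod2*, at 146, both ahead of the gene that followed in 3 of 3 libraries. The 6 genes below them lay between 82.9 for *Eomes* and 26.4 for *Emx1*, and the range of each overlapped that of its neighbour in the order. *Emx1*, which marks pallial progenitors and their progeny, was at 470 normalized counts per kb in the *Lhx6* controls and at 26.4 in the *Mtg8* controls, where its mean was the lowest of the 9 but *Fezf2* was ahead of it in only 1 of 3 libraries. *Neurog2*, the main proneural factor of the pallium, was at 764 normalized counts per kb in the former and at 58.4 in the latter. The 2 tables were normalized separately, so that levels across them are set side by side without a test.

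**Figure D1:**
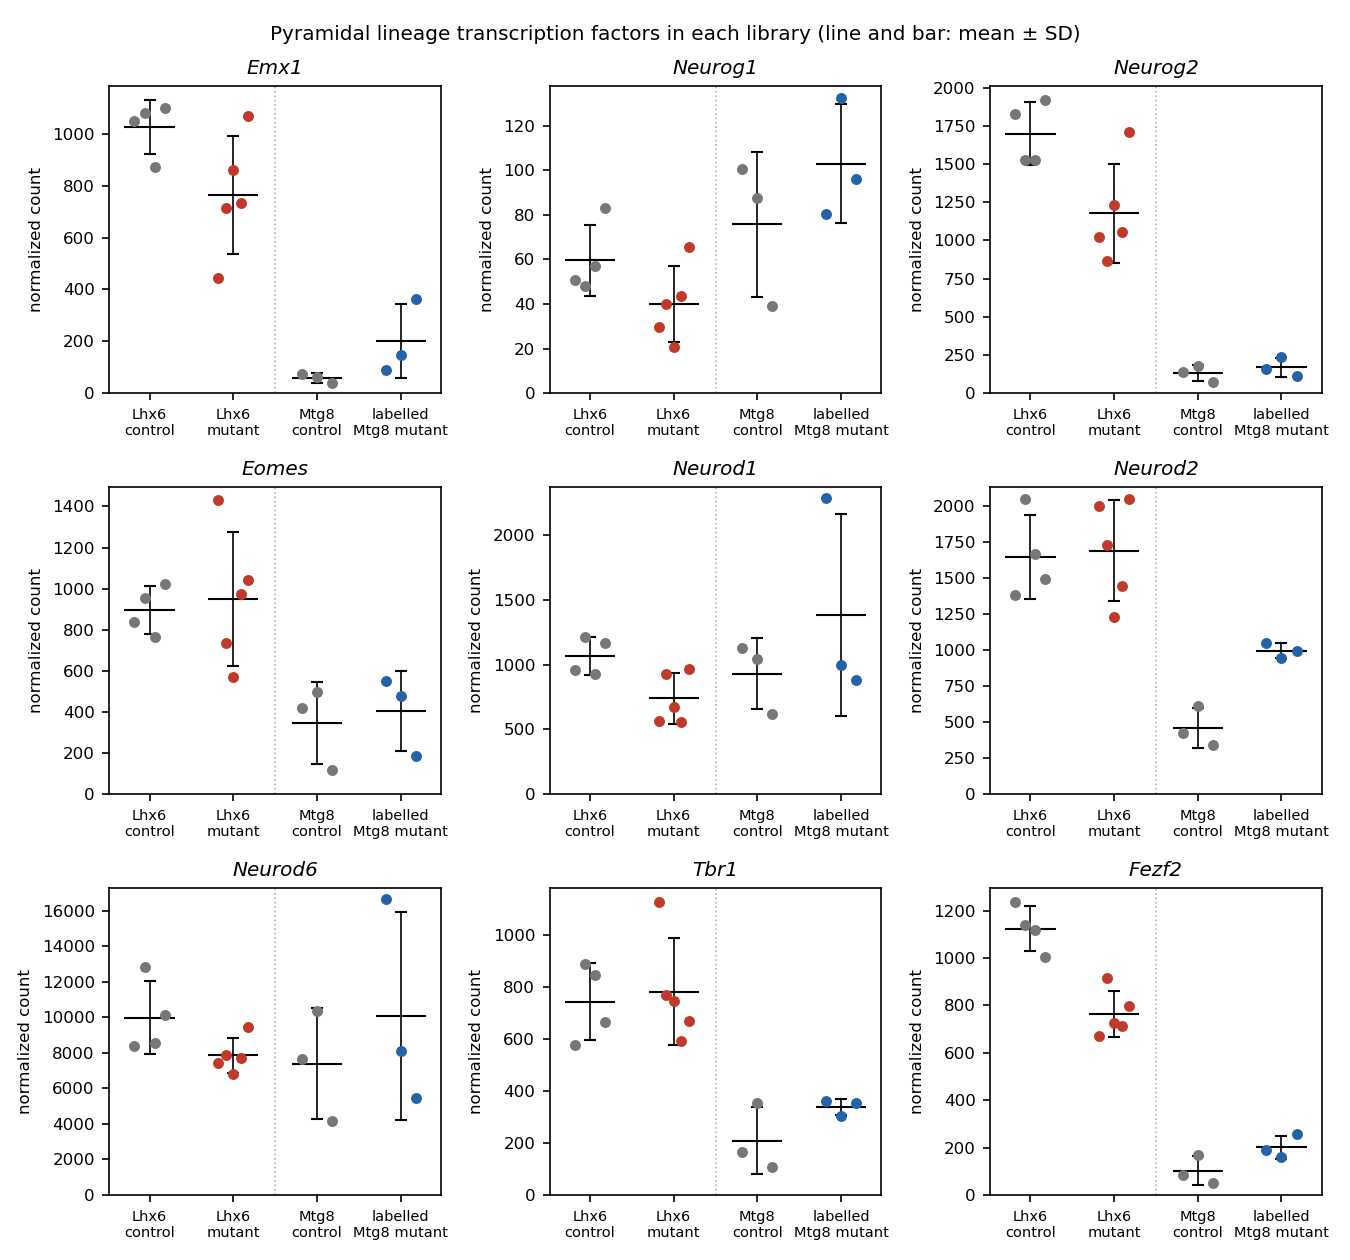
Normalized counts of the 9 genes in each library (y axis, linear, starting at 0) for the 4 groups on the x axis. Points are libraries, the horizontal line is the group mean and the bar is 1 SD. *Fezf2* in the *Lhx6* table and *Neurod2* and *Emx1* in the *Mtg8* table are the genes whose control and mutant libraries do not overlap.

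Ratios of genes within a library do not depend on how the library was scaled, and they differed between the tables far more for some members than for others. The ratio of *Neurod6* to *Neurod1*, both per kb, was 10.8 to 17.5 over the 9 libraries of the *Lhx6* table and 7.83 to 12.6 over the 6 of the *Mtg8* table, so that the ranges overlapped. Against *Neurod2* the ratio was 5.43 to 9.90 in the *Lhx6* table and 7.99 to 26.3 in the *Mtg8* table, also with overlap. The ratio of *Neurod6* to *Neurog2* was 4.76 to 9.43 in the *Lhx6* table and 35.6 to 109 in the *Mtg8* table, with no overlap. Against *Fezf2*, *Neurod6* was 9.65 to 16.7 times higher in the *Lhx6* table and 30.1 to 126 times higher in the *Mtg8* table. The ratio of *Neurod6* to *Eomes* was 10.1 to 25.9 in the former and 32.8 to 67.7 in the latter, and that of *Neurod6* to *Tbr1* was 16.8 to 38.8 and 39.3 to 119, again without overlap. Thus *Neurog2*, *Fezf2*, *Eomes* and *Tbr1* were scarcer relative to *Neurod6* in every library of the *Mtg8* table, mutants and controls included. *Neurog1* lay the other way, with a ratio of *Neurod6* to *Neurog1* of 95.4 to 261 (median 139) in the *Lhx6* table and of 44.2 to 162 (median 71.4) in the *Mtg8* table, and the ranges overlapped. Each table holds a single line of mice, so that line and any other difference between the experiments cannot be told apart.

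*Emx1* showed the widest spread within a table. The ratio of *Neurod6* to *Emx1* was 8.04 to 17.1 in the *Lhx6* table. In the *Mtg8* table it was 104, 173 and 113 in controls 1, 2 and 4, and 189, 55.6 and 15.2 in labelled mutants 2, 3 and 4. Labelled mutant 2 thus sat above every control and the other labelled mutants sat below every control, and labelled mutant 4 lay within the range of the *Lhx6* table. In that library *Emx1* made up 4.57% of the summed level of the 9 genes, beside 0.439 to 1.38% in the other libraries of the *Mtg8* table.

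**Figure D2:**
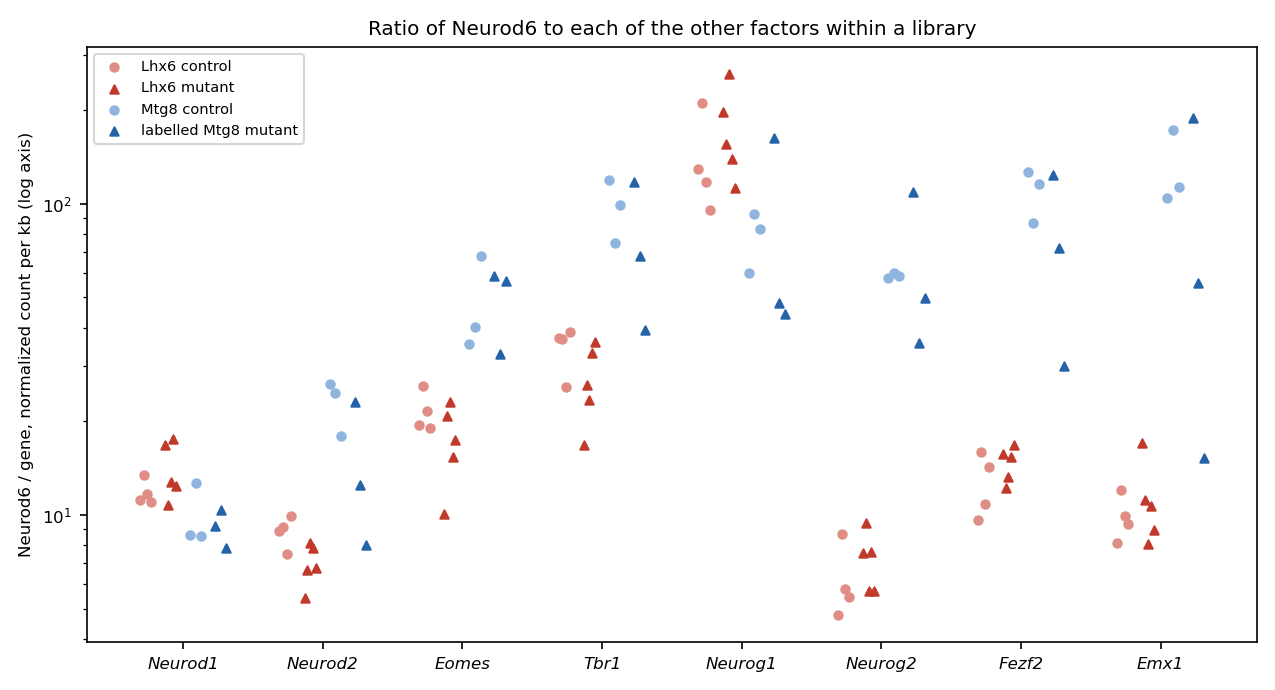
Ratio of *Neurod6* to each of the other 8 genes within each library, on normalized counts per kb (y axis, log scale), with the other gene on the x axis. Each point is a library. For *Neurod1* the tables overlap, while for *Neurog2* all libraries of the *Lhx6* table lie at 4.76 to 9.43 and all of the *Mtg8* table at 35.6 to 109.

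In the comparison of *Lhx6* mutants with *Lhx6* controls, the question was whether loss of the interneuron factor LHX6 went with more or less of the pyramidal lineage factors in the sorted cells. Differences were tested with limma on log2(normalized count + 1), two-sided, with adjustment over all 16727 genes tested, and all 9 genes passed the minimum mean of 10. By this test 0 of the 9 genes were called at an adjusted p under 0.05, beside 1.71% of all genes, and 5 of 9 had an unadjusted p under 0.05, beside 2132 of all 16727. The log2 fold change was below 0 for 6 genes and above 0 for 3, with a median of -0.48 beside -0.04 over all genes tested. Without single libraries this median ran from -0.58 to -0.31, the latter without mutant 1. With library name style as a covariate, a fit that rests on mutant 6 alone, it was 0.01, and *Neurog1*, *Neurog2* and *Emx1* lay above 0. In such bulk samples fewer cells of a type and less RNA per cell cannot be told apart.

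*Fezf2*, a zinc finger factor that specifies deep layer projection neurons (GRCm38 chromosome 14, 12342094 to 12348189, minus strand), was at 1235, 1140, 1117 and 1002 normalized counts in *Lhx6* controls 1 to 4 and at 669, 915, 727, 712 and 799 in *Lhx6* mutants 1, 2, 3, 5 and 6. All 5 mutants were below all 4 controls, and it was the only member, 1 of 9, with such a separation in this direction, beside 3.03% of all genes. Its mean fell from 1124 ± 95.7 (SD, n = 4) to 765 ± 96.3 (n = 5), with a log2 fold change of -0.56 (SE 0.14, 95% interval -0.86 to -0.26). The limma adjusted p was 0.0748, above the threshold, and the exact permutation test of this gene alone gave p = 0.0159. DESeq2's Wald test, which is the test of the study, called *Fezf2* (adjusted p = 0.00276) as 1 of the 9 members, beside 4.53% of all genes. In mutant 6, the only mutant with the same style of library name as the controls, *Fezf2* was lower than the mean of the controls by a log2 difference of -0.49.

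The proneural genes lay in the same direction without passing the test. *Neurog2* (chromosome 3, 127633135 to 127635631, plus strand) was at 1830, 1527, 1525 and 1920 normalized counts in the *Lhx6* controls and at 1023, 865, 1235, 1053 and 1709 in the mutants. Mutants 1, 2, 3 and 5 were below every control, and mutant 6 was within the range of the controls. *Neurog2* had a log2 fold change of -0.56 (SE 0.19, limma adjusted p = 0.198) and an exact permutation p of 0.0476. Without mutant 6 it was -0.71 and passed the limma test (adjusted p = 0.0310), while mutant 6 alone differed from the mean of the controls by 0.01. *Neurog1*, its paralogue (chromosome 13, 56250478 to 56252163, minus strand), was at 47.9 to 83.0 in the controls and 20.5 to 65.6 in the mutants, with a log2 fold change of -0.64 (SE 0.37, limma adjusted p = 0.502).

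Among the NeuroD factors, *Neurod1* and *Neurod6* were lower on average and *Neurod2* was not. *Neurod1*, which acts at the step from intermediate progenitor to neuron (chromosome 2, 79452521 to 79456751, minus strand), was at 958, 1214, 928 and 1168 normalized counts in the controls and at 562, 930, 675, 560 and 966 in the mutants. Mutants 1, 3 and 5 were below every control, and mutants 2 and 6 lay within their range. This gave a log2 fold change of -0.56 (SE 0.20, limma adjusted p = 0.235). *Neurod6* (chromosome 6, 55677822 to 55681263, minus strand) was at 8408 to 12817 in the controls and 6812 to 9427 in the mutants, with 4 of 5 mutants below every control and a log2 fold change of -0.33 (SE 0.14, limma adjusted p = 0.371), which was -0.20 without control 2. *Neurod2*, of mature projection neurons (chromosome 11, 98325415 to 98329648, minus strand), was at 1382 to 2045 in the controls and 1228 to 2045 in the mutants, and its log2 fold change of 0.03 had a 95% interval of -0.36 to 0.42.

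*Emx1* (chromosome 6, 85187438 to 85204462, plus strand) was at 1053, 1083, 873 and 1100 normalized counts in the *Lhx6* controls and at 443, 715, 861, 734 and 1070 in the mutants. Again mutants 1, 2, 3 and 5 were below every control and mutant 6 was not. Its log2 fold change was -0.48 (SE 0.22, limma adjusted p = 0.390), which was -0.29 without mutant 1, and within the undated library names, mutant 6 against the controls, it was 0.06. In that comparison *Neurod1* differed by -0.13, *Neurod6* by -0.06 and *Neurog1* by 0.17. No *Lhx6* control has a dated name, so that library name style and genotype cannot be told apart for any of the 9 genes except through mutant 6, which is 1 library. With name style as a covariate limma gave *Fezf2* a log2 fold change of -0.49 with an adjusted p of 0.965.

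The T-box genes did not differ beyond the spread between libraries. *Eomes*, the T-box factor of intermediate progenitors (chromosome 9, 118478212 to 118486132, plus strand), was at 765 to 1024 normalized counts in the controls and 572 to 1429 in the mutants, with a log2 fold change of 0.03 (95% interval -0.48 to 0.53). *Tbr1*, the T-box factor of early postmitotic and layer 6 neurons (chromosome 2, 61802930 to 61814114, plus strand), was at 578 to 887 in the controls and 593 to 1127 in the mutants, with a log2 fold change of 0.06 (95% interval -0.38 to 0.50). Mutant 1 was the highest of the 9 libraries for both, at 1429 for *Eomes* and 1127 for *Tbr1*, and the lowest for *Emx1* and *Fezf2*. Within 1 library the factors of this lineage therefore stood at opposite ends of their ranges.

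**Figure D3:**
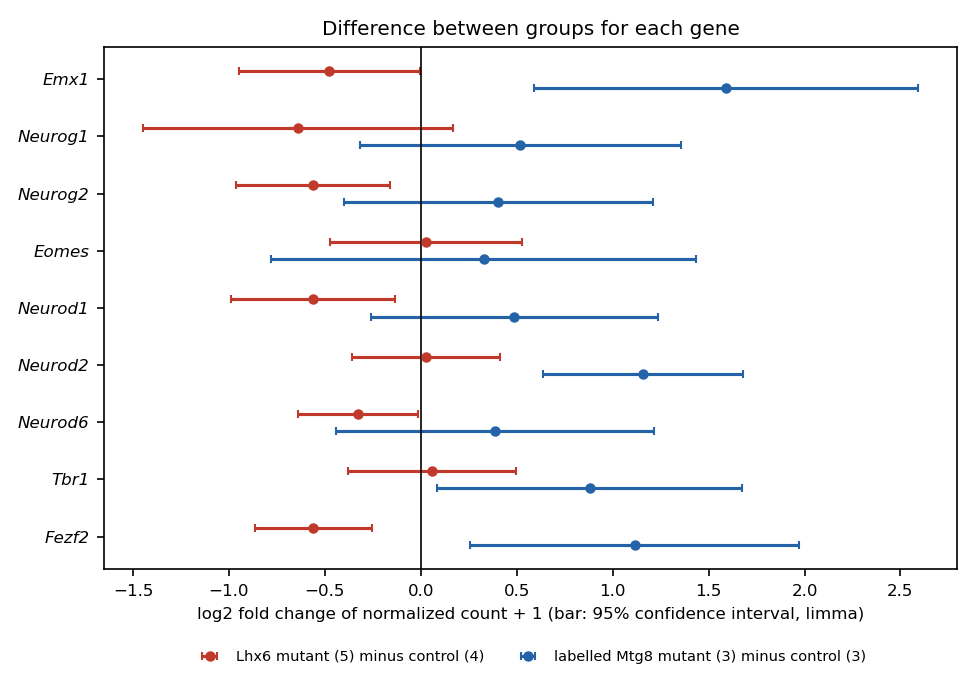
Log2 fold change of normalized count + 1 (x axis) for each gene (y axis), *Lhx6* mutant minus control in red and labelled *Mtg8* mutant minus control in blue. Points are estimates and bars are limma's 95% intervals. *Fezf2* in the *Lhx6* table is at -0.56 (-0.86 to -0.26), and all 9 blue points lie above 0.

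In the *Mtg8* table the same genes were compared between libraries labelled *Mtg8* mutant and their controls. The log2 fold change was above 0 for 9 of 9 members, with a median of 0.52 beside -0.01 over the 16132 genes tested. By limma 0 of the 9 genes were called, beside 0% of all genes (0 of 16132, of which 886 had an unadjusted p under 0.05; DESeq2 called 31 genes and edgeR 1). Unadjusted p was under 0.05 for 4 of the 9. With 3 libraries against 3 the exact permutation test cannot go below p = 0.1.

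*Neurod2* gave the most even difference. It was at 426, 614 and 338 normalized counts in controls 1, 2 and 4 and at 1051, 945 and 993 in labelled mutants 2, 3 and 4. Every labelled mutant was above every control, which held for 2 of the 9 members, *Neurod2* and *Emx1*, beside 4.68% of all genes. The mean was 459.5 ± 141 (SD, n = 3) in the controls and 996 ± 53.3 (n = 3) in the labelled mutants, 217% of the control mean. The log2 fold change was 1.16 (SE 0.24, 95% interval 0.63 to 1.68) with a limma adjusted p of 0.582, and the exact permutation p was 0.1, the smallest it can give. DESeq2's Wald test gave an adjusted p of 0.0218. It called *Neurod2* and *Emx1*, 2 of the 9, beside 0.191% of all genes. Within dated names the log2 difference was 1.04 and within undated names 1.51, and without any single library it stayed between 0.96 and 1.39.

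*Emx1* was at 74.9, 60.8 and 37.2 normalized counts in *Mtg8* controls 1, 2 and 4 and at 89.5, 148 and 362 in labelled mutants 2, 3 and 4. The groups did not overlap, but the labelled mutants spanned a range of their own, with the highest value in mutant 4. The mean was 57.6 ± 19.1 (SD, n = 3) in the controls and 200 ± 144 (n = 3) in the labelled mutants, with a log2 fold change of 1.59 (SE 0.46, 95% interval 0.59 to 2.59, limma adjusted p = 0.859). DESeq2 gave a log2 fold change of 1.80 with an adjusted p of 0.0406. In the limma fit without labelled mutant 4 the value was 1.04, and it was 0.40 within dated names and 2.61 within undated names.

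*Fezf2* was at 86.1, 170 and 50.9 normalized counts in the *Mtg8* controls and at 190, 159 and 255 in the labelled mutants. Control 2 lay above labelled mutant 3, so that the groups overlapped. Its log2 fold change was 1.12 (SE 0.39, limma adjusted p = 0.859), and without control 4 it was 0.71. *Tbr1* was at 164, 354 and 107 in the controls and at 363, 305 and 352 in the labelled mutants, with control 2 inside the range of the labelled mutants. Its log2 fold change was 0.88 (SE 0.37, limma adjusted p = 0.859), which was 0.49 without control 4 and 1.35 without control 2. DESeq2 called neither gene (adjusted p = 0.495 for *Fezf2* and 0.769 for *Tbr1*).

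The abundant *Neurod1* and *Neurod6* overlapped between the groups but, like *Fezf2*, *Tbr1* and *Eomes*, not within a style of library name. *Neurod6* was at 7668, 10347 and 4146 normalized counts in the *Mtg8* controls and at 16641, 8095 and 5430 in the labelled mutants. Labelled mutant 2 was above every other library, and the remaining labelled mutants lay within the range of the controls. For *Neurod6* the log2 fold change was 0.38 (SE 0.38, limma adjusted p = 0.902), and it was -0.06 without labelled mutant 2 and 0.02 without control 4. Within dated names it was 0.90, within undated names 0.68, and with name style as a covariate 0.79 (limma adjusted p = 0.644). *Neurod1* was at 1130, 1040 and 616 in the controls and at 2285, 993 and 881 in the labelled mutants, with the same library highest and a log2 fold change of 0.49 (SE 0.34, limma adjusted p = 0.874). Without labelled mutant 2 that value was 0.06, and without control 4 it was 0.22. It was 1.08 within dated names, 0.60 within undated names and 0.84 with the covariate (limma adjusted p = 0.644). For both genes every labelled mutant was above every control of its own name style. This also held for *Neurod2*, *Eomes*, *Tbr1*, *Emx1* and *Fezf2*, but not for *Neurog1* and *Neurog2*. Among undated names the comparison rests on control 4 alone, the lowest library of its table for all 9 genes. Among dated names it rests on labelled mutant 2 alone. The share of all genes with such a pattern was not counted, so that the pattern is a description only.

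The progenitor genes *Neurog1*, *Neurog2* and *Eomes* overlapped between the groups. *Neurog1* was at 39.1 to 101 normalized counts in the controls and 80.4 to 132 in the labelled mutants, with a log2 fold change of 0.52 (95% interval -0.32 to 1.35), which was -0.22 within dated names, 1.51 within undated names and 0.10 without control 4. *Neurog2* was at 73.4 to 179 and 113 to 235, with a log2 fold change of 0.40 (95% interval -0.40 to 1.21), which was 0.01 within dated names, 1.14 within undated names, 0.04 without control 4 and 0.68 without control 2. *Eomes* was at 118 to 497 and 186 to 551, with a log2 fold change of 0.33 (95% interval -0.78 to 1.44). For *Eomes* it was 0.27 within dated names, 1.32 within undated names and 0.80 with name style as a covariate. For these 3 genes the intervals include changes of more than a doubling as well as none, so that no difference was detectable with 3 libraries in each group.

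*Mtg8* control 4 was the lowest of the 6 libraries for 9 of the 9 genes. It was also the only control with an undated name. Without it the median log2 fold change of the members was 0.22 in place of 0.52, and *Eomes* changed sign to -0.32. Labelled mutant 2 was the highest for 5 genes (*Neurod1*, *Neurod2*, *Neurod6*, *Eomes* and *Tbr1*), labelled mutant 3 for *Neurog1* and *Neurog2*, and labelled mutant 4 for *Emx1* and *Fezf2*. The 3 labelled mutants thus each led in a different set of the genes. The summed level of the 9 genes was 4431, 5789 and 2399 normalized counts per kb in controls 1, 2 and 4 and 9333, 4904 and 3631 in labelled mutants 2, 3 and 4, with overlapping groups. In the *Lhx6* table the summed level was 6657 to 9033 in the controls and 5280 to 7321 in the mutants.

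**Figure D4:**
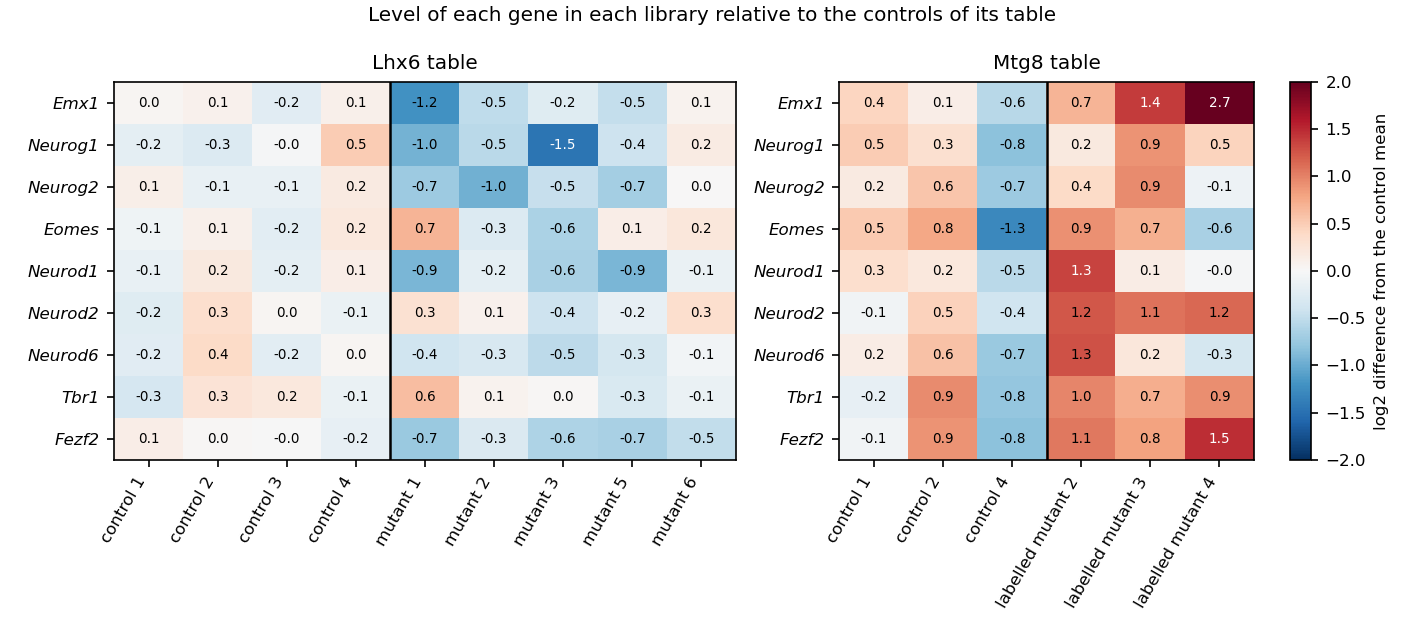
Log2 difference of each gene (rows) in each library (columns) from the mean of the controls of its table, on log2(normalized count + 1), with controls left of the black line. *Mtg8* control 4 is below the control mean for all 9 genes, while *Lhx6* mutant 1 is high for *Eomes* and *Tbr1* and low for *Emx1* and *Fezf2*.

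Whether the genes moved together was described over all 15 libraries, as the deviation of each library from its group mean. Each gene was set against the mean deviation of the other 8. Pearson's r was 0.71 for *Neurod2*, 0.70 for *Neurod6* and 0.69 for *Eomes*, between 0.55 and 0.66 for *Neurog2*, *Fezf2*, *Neurog1*, *Tbr1* and *Neurod1*, and 0.05 for *Emx1*. Without *Mtg8* controls 2 and 4, the libraries farthest from the median, r was between 0.29 and 0.51 for 6 genes and below 0 for *Tbr1* (-0.25), *Fezf2* (-0.26) and *Emx1* (-0.36), so that the positive relation of *Tbr1* and of *Fezf2* with the others rested on these libraries. Among pairs, r was 0.86 for *Neurod1* with *Neurod6*, 0.80 for *Neurod6* with *Eomes* and 0.77 for *Neurod2* with *Tbr1*. The points share library, depth and scaling, and no p is given.

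By the same measure, the 10 genes of 11860 whose deviations were most like the mean of the members were *Bend6* (r = 0.94), *Lmo1* (0.91), *Gadd45g* (0.89), *Coq2* (0.88), *Arhgef25* (0.84), *Gm45456* (0.84), *Sstr2* (0.83), *Meis2* (0.82), *Usp1* (0.82) and *Cdk9* (0.82). Without *Mtg8* controls 2 and 4 the r of *Coq2* was 0.44, and that of the other 9 was between 0.69 and 0.89. Ranked on the *Lhx6* table alone or on the *Mtg8* table alone, 0 of these 10 stayed among the first 10. *Gadd45g* is a known component of the neurogenin cascade, and its r was 0.91 within the *Lhx6* table and 0.96 within the *Mtg8* table. Of 14 cascade genes that could be ranked, 9 were among the first 500 of the 11860, and of 19 glutamatergic genes 4 were, while of 19 MGE interneuron markers 0 were. Median r was 0.61 for the cascade genes, 0.23 for the glutamatergic genes and -0.25 for the MGE markers, beside 0.01 over all genes. It was 0.45 for 4 family relatives, 0.43 for 5 Cajal-Retzius genes and 0.40 for 5 pallial progenitor genes, of which 2, 0 and 1 were among the first 500. The lists share genes, so that these counts are not separate. *Neurod4* and *Bhlhe22* are listed among both the cascade genes and the relatives, and *Emx2* among both the pallial genes and the relatives.

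The other genes of the pathway gave counts in the same tables. Of 16 genes of the neurogenic cascade, 0 were called lower and 1 higher by limma and by DESeq2 in the *Lhx6* table, while edgeR called 0. That gene was *Elavl4*, which encodes a neuronal RNA-binding protein, with 5329 ± 140 normalized counts (SD, n = 4) in the controls and 7161 ± 277 (n = 5) in the mutants (log2 fold change 0.43, limma adjusted p = 0.0438). The median of the list was -0.07 in the *Lhx6* table. In the *Mtg8* table limma, edgeR and DESeq2 called 0 of the 16, with 4 at an unadjusted limma p under 0.05, while 14 of 16 had a log2 fold change above 0 and the median was 0.45. Of the 16, 4 were higher in every labelled mutant than in every control, beside 4.68% of all genes, and 0 were lower, beside 5.52%. *Gadd45g*, which is 1 of these 4, was named above for its likeness to the members in the same libraries. It was at 266 to 788 in the *Mtg8* controls and 1096 to 1297 in the labelled mutants (log2 fold change 1.11, limma adjusted p = 0.859).

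Upstream, limma, edgeR and DESeq2 called 0 pallial progenitor genes in either table, with 1 at an unadjusted limma p under 0.05 for *Lhx6* and 4 for *Mtg8*. Of their 10 genes, 6 had a log2 fold change below 0 in the *Lhx6* table (median -0.17), and 9 of the 9 tested were above 0 in the *Mtg8* table (median 0.64). In the latter 5 of the 9 did not overlap between the groups, all higher in the labelled mutants, beside 4.68% of all genes. *Lhx2*, a LIM homeobox gene of pallial progenitors and one of the most abundant of the list per kb, was at 1422 ± 184 normalized counts in the *Lhx6* controls and 1362 ± 413 in the mutants, and at 613 ± 83.1 in the *Mtg8* controls and 863 ± 158 in the labelled mutants (log2 fold change 0.48, limma adjusted p = 0.859). *Emx2*, the paralogue of *Emx1*, was at 422 ± 50.6 and 375 ± 111 in the *Lhx6* table, and at 76.7 ± 2.63 and 160 ± 38.7 in the *Mtg8* table (log2 fold change 1.02, limma adjusted p = 0.813). As for *Emx1*, all its values in the *Mtg8* table lay below all those in the *Lhx6* table, each table being scaled on its own.

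Downstream, 2 of 21 glutamatergic projection neuron genes were called by limma in the *Lhx6* table, 1 in each direction, and the median was -0.16. DESeq2 called 3 lower (*Mpped1*, *Cux1* and *Cux2*) and 3 higher (*Bcl11b*, *Foxp1* and *Lmo4*). *Bcl11b*, a zinc finger factor that acts with *Fezf2* in subcerebral neurons and is also expressed in ventral neurons, rose from 6042 ± 1230 (SD, n = 4) to 16645 ± 4764 (n = 5) normalized counts in the *Lhx6* mutants (log2 fold change 1.43, limma adjusted p = 0.00353), in the direction opposite to that of *Fezf2*. *Mpped1* fell from 5413 ± 1268 to 2904 ± 716 (log2 fold change -0.90, limma adjusted p = 0.0317). In the *Mtg8* table limma, edgeR and DESeq2 called 0 of 21, with 5 at an unadjusted limma p under 0.05, and 15 of 21 had a log2 fold change above 0 (median 0.42). *Bcl11b*, *Mpped1*, *Cux1* and *Cux2*, 4 of the 21, were lower in every labelled mutant than in every control, beside 5.52% of all genes. The log2 fold changes of these 4 genes lay between -0.55 for *Bcl11b* and -0.31 for *Cux2*. *Crym*, *Wnt7b* and *Nfe2l3*, 3 of the 21, were higher in every labelled mutant, beside 4.68% of all genes. These changed more, with log2 fold changes of 1.11 for *Crym*, 1.19 for *Wnt7b* and a value above both for *Nfe2l3*. The glutamate transporter genes were low beside *Neurod6*, and *Gad1* and *Gad2* were also below it in every library. *Slc17a6* was at 53.1 to 99.7 normalized counts per kb in the *Lhx6* table and 39.3 to 200 in the *Mtg8* table, and *Slc17a7* was at 3.49 to 9.57 and 1.81 to 8.11.

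Markers of other cell types were given beside these values, and their part in the results was not tested. Of 20 MGE interneuron markers, 5 were called lower and 2 higher by limma in the *Lhx6* table, with 10 genes of the list below 0 and 10 above (median -0.13). Those called lower included *Lhx6* itself, *Sst* (log2 fold change -3.06), *Npy* (-1.61) and *Satb1* (-1.56), and those called higher were the homeobox genes *Dlx6* (1.66) and *Dlx5* (1.02). The summed level of the list, to which *Sst* and *Npy* contribute most per kb, was 31027 to 35500 normalized counts per kb in the *Lhx6* controls and 10679 to 16317 in the mutants, so that the groups did not overlap. In the *Mtg8* table limma called 0 of 19, with 7 at an unadjusted p under 0.05, and edgeR called 0, while DESeq2 called 2 lower, *Sst* (adjusted p = 9.25e-06) and *Npy* (adjusted p = 0.0247). By log2 fold change 15 of 19 lay below 0 (median -0.33), and 7 of 19 were lower in every labelled mutant than in every control, beside 5.52% of all genes. These 7 were *Sst*, *Npy*, *Sox6*, *Satb1*, *Erbb4*, *Dlx1* and *Lhx6*, with log2 fold changes of -1.34 for *Sst* to -0.24 for *Lhx6*. The summed level was 40995 to 49342 in the controls and 20302 to 26603 in the labelled mutants, again without overlap. Of the 11 markers of the caudal and lateral eminences, 1 was called by limma in the *Lhx6* table, *Htr3a*, which was lower (log2 fold change -1.65). DESeq2 called *Htr3a* lower and 4 genes of the list higher, *Nr2f2*, *Sp8*, *Sp9* and *Meis2*, and edgeR called 0. The list as a whole lay the other way, with 9 of 11 above 0, a median of 0.82 and a summed level of 620 to 823 normalized counts per kb in the controls and 1009.5 to 1648 in the mutants, without overlap. It did so in the *Mtg8* table too, where 7 of 9 genes lay above 0 (median 0.52) and the summed level was 571 to 593 in the controls and 620 to 687 in the labelled mutants. There limma and edgeR called 0 of the 9, with 2 at an unadjusted limma p under 0.05, and DESeq2 called 1 higher, *Sp8* (log2 fold change 1.42, adjusted p = 0.0241). Of 8 Cajal-Retzius genes, *Ndnf* was called higher by limma in the *Lhx6* table (log2 fold change 2.42), while 5 of the 8 lay below 0 and the median was -0.53. Of 10 radial glia and cycling cell markers limma called 0 in both comparisons, with 1 at an unadjusted p under 0.05 for *Lhx6* and 4 for *Mtg8*, and DESeq2 called 1, *Sox2*, higher in the *Lhx6* table (log2 fold change 1.06, adjusted p = 0.0107). Their summed level was 5026 to 6219 in the *Lhx6* controls and 4471 to 9201 in the mutants, and 3498 to 4156 in the *Mtg8* controls and 4360 to 7214 in the labelled mutants, where the groups did not overlap.

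Microglia, endothelial, pericyte and oligodendrocyte precursor markers were without calls in either table by limma, edgeR and DESeq2, with an unadjusted limma p under 0.05 for 1 endothelial and 1 precursor gene in the *Lhx6* table and for 2 precursor genes in the *Mtg8* table. Each of these lists summed to at most 431 normalized counts per kb in any library. The precursor list had 4 of 4 genes above 0 in the *Mtg8* table (median log2 fold change 2.03). It summed to 6.88, 1.03 and 84.9 normalized counts per kb in controls 1, 2 and 4 and to 7.10, 66.2 and 140 in labelled mutants 2, 3 and 4, so that control 4, the lowest library for the lineage factors, stood with the other undated libraries. The erythroid markers were without calls by the same 3 tools, with 1 unadjusted limma p under 0.05 in the *Mtg8* table, and their summed level ranged from 2466 to 79866 normalized counts per kb in the *Lhx6* table and from 14788 to 43086 in the *Mtg8* table. Labelled *Mtg8* mutant 2, the highest library of its table for the summed level of the lineage factors, was also the highest for the erythroid markers (43086), and control 4, the lowest for the factors, was at 26816. Other family relatives of the members had 0 calls by limma, edgeR and DESeq2 among the 7 genes tested in the *Lhx6* table and the 6 of the *Mtg8* table, with 0 and 2 at an unadjusted limma p under 0.05.

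Exons of *Neurod1* overlap those of *Cerkl* on the same strand over 201 bases, and *Cerkl* reached at most 32.0 normalized counts in any library. Exons of *Eomes* overlap those of *Gm33460* on the opposite strand over 118 bases, and *Gm33460* reached at most 16.1. The other 7 genes had no such overlap in the annotation used.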

How the data were processed

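RNA of YFP+ cells from single E14.5 embryos was sequenced as single 75 bp reads. The authors used fastp 0.20.1 for trimming, STAR 2.7b for alignment to GRCm38 and featureCounts 1.6.4 for counts per gene, and they left out sex-linked genes. The signal that the authors deposited is the read count divided by DESeq2's size factor of the library, scaled separately in 2 tables. The log2 fold change and its standard error, the Wald statistic (a score) and both p-value columns that the authors deposited were not used. Strandedness of counting was not given in the sources used here.

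In every library the deposited values were multiples of what 1 read is worth (100% of them whole within a tolerance of 0.01), so that reads could be recovered. Each table was fitted on its own with limma 3.58.1 (R 4.3.3) on log2(normalized count + 1) and its mean-variance trend option. Genes needed a mean normalized count of 10 or more. Tests were two-sided, with Benjamini-Hochberg adjustment over all genes and a threshold of 0.05. DESeq2 1.42.0 and edgeR 4.0.16 on recovered reads were alternatives, as were other pseudocounts, filters, TMM factors, a replicate block, library name style and leaving out each library. Samples were grouped by their labels. Fold changes on the log2(value + 1) scale understate changes of low genes. Depth was 12218422 to 22053032 reads.

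Levels per kb use the exon length given in the tables. Promoters came from RefSeq (GRCm38.p6), matched by symbol for 9 of 9 genes. All members were named, with the called genes of each list (for pathway lists without calls, the most abundant per kb) and the 10 genes most like the members. Not every gene of the lists is reported here. The members and lists were chosen with earlier results of these data known. Scripts' statistics were tested on simulated data.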

Additional observations from a re-analysis of the deposited data

Results flagged for a closer look

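Of 36 sets of values examined, each a member's level, ratio or sum in a group of 4 or 5 libraries, 1 held a library far from the others, and chance gives about 1 in 20 such sets. In *Lhx6* control 3 the ratio of *Neurod6* to *Tbr1*, both per kb, was 25.7, while the nearest of the other *Lhx6* controls was at 36.9. *Tbr1* was at 845 normalized counts and *Neurod6* at 8522 in that library, both within the range of the other controls. The *Mtg8* groups have 3 libraries each and were not examined in this way.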

How the results depend on the processing

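*Fezf2* in the *Lhx6* table and *Neurod2*, *Emx1*, *Fezf2* and *Tbr1* in the *Mtg8* table kept their direction under every alternative run. So did *Neurod1* and *Neurod6* in the *Lhx6* table and *Neurod1*, *Neurog1* and *Neurog2* in the *Mtg8* table, which were called under none. Within dated names, a split that was not fitted, *Neurog1* was at -0.22 in the *Mtg8* table. The calls of *Fezf2* in the *Lhx6* table and of *Neurod2* and *Emx1* in the *Mtg8* table depended on the test or, for the latter 2, also on the replicate block, while *Fezf2* and *Tbr1* in the *Mtg8* table were called under none (lowest adjusted p 0.0768 and 0.281). In the *Lhx6* comparison, 286 genes were called by limma, 811 by DESeq2, 86 with a replicate block and 57 with library name style as a covariate. Without 1 library each the count ran from 159 (without control 1) to 492 (without mutant 6). DESeq2 called 1 member, *Fezf2*, and without single libraries 0 to 1 members were called, *Neurog2* being called without mutant 6. With library name style as a covariate the median of the members moved from -0.48 to 0.015, and *Neurog1* (0.17), *Neurog2* (0.015), *Tbr1* (-0.13) and *Emx1* (0.065) changed sign. The covariate compares mutant 6 with the controls, so that it rests on 1 mutant library. TMM factors gave -0.0079 for *Neurod2* and -0.010 for *Eomes*. Leaving out 1 library gave -0.050 to 0.14 for *Neurod2*, -0.14 to 0.19 for *Eomes* and -0.084 to 0.15 for *Tbr1*, whose estimates lie near 0, and -0.58 to -0.31 for the median of the members.

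In the *Mtg8* table limma called 0 genes, 1 without a filter and 2 with a minimum mean of 50. edgeR called 1, DESeq2 31, and leaving out 1 library gave 0 to 87 (87 without labelled mutant 2). DESeq2 called 2 members, *Neurod2* and *Emx1*, and limma called 0 members whichever library was left out. The median of the members was 0.84 with library name style as a covariate and 0.22 to 0.81 without 1 library. *Eomes* ranged from -0.32 to 0.81 and *Neurod6* from -0.058 to 0.75 without 1 library. The log2 ratio of the summed level was 0.02 to 0.80 without 1 library. Of the 10 genes most like the members, 0 were shared with the *Lhx6* table alone and 0 with the *Mtg8* table alone.

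Replicate numbers are shared between groups but do not mark a shared animal, and same-numbered libraries deviated together only in part (correlations of -0.15 to 0.07 in the *Lhx6* table and of 0.14 and 0.16 over 2 pairs in the *Mtg8* table). The replicate block gave 100 called genes in the *Mtg8* table, 2 called members (*Neurod2* with adjusted p = 0.0090 and *Emx1* with adjusted p = 0.00073 by limma) and a median of 0.82, and in the *Lhx6* table -0.048 for *Neurod2* and -0.0087 for *Eomes*. In the *Mtg8* table only replicates 2 and 4 occur in both groups, so that its block rests on 2 pairs. With name style as a covariate limma called 0 genes there (adjusted p = 0.397 for *Neurod2* and 0.7945 for *Emx1*). Each library is a separate embryo, so that p-values cover the spread between embryos. They treat embryos as independent, although some libraries of a group share the first part of their names. Whether those embryos share a litter is not given in the sources used here. The strand of counting could bear on *Eomes* through its antisense neighbour.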
